A study of Mus musculus with 8 samples.

Results

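The genes of cholesterol and fatty acid synthesis and of sterol transport were followed in mouse rib chondrocytes with and without the *Mir140* locus. The module holds 39 genes, chosen for their known roles in these pathways, out of 52325 gene identifiers listed for each library. The choice was made with earlier results of these data known. They fall into 4 role groups: 18 genes of mevalonate and sterol synthesis, 10 of fatty acid synthesis, 5 regulators and 6 of sterol transport. The study asked what the microRNAs of the *Mir140* locus do in cartilage, and sequenced mRNA from costal chondrocytes, the cartilage cells of the ribs, freed from the tissue with collagenase. There were 4 wild-type and 4 *Mir140*-null libraries, all from mice aged 7 d on a C57BL/6J strain background. The null allele is a germline deletion of the whole locus made with CRISPR/Cas9, so miR-140-5p and miR-140-3p are lost together and in every tissue. Its founders were of mixed C57BL/6 and CBA/ca origin and were backcrossed onto C57BL/6J, and the wild-type and null lines both descend from crosses between heterozygotes. Genotype and mouse line therefore cannot be told apart. The labels do not say whether each library came from its own animal or from pooled animals, so the tests measure the spread between libraries.

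Cells build cholesterol from acetyl-CoA through mevalonate, isoprenoid diphosphates, squalene and lanosterol, and they build long-chain fatty acids from the same precursor by synthesis, elongation and desaturation. The transcription factors SREBP2 (gene *Srebf2*) and SREBP1 (*Srebf1*) drive many of these genes. They leave the endoplasmic reticulum with the escort protein SCAP when sterols are low, and the INSIG proteins hold the complex back when sterols are high. Growth cartilage depends on this pathway, and inherited defects of several sterol synthesis enzymes cause skeletal malformations.

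The *Mir140* locus gives rise to miR-140-5p and to miR-140-3p, and the latter occurs in 2 forms that start 1 base apart and so carry different seeds. Their sequences are shown because the seed, bases 2 to 8, decides which letters in a 3′UTR can pair. The longer form is as RefSeq gives it (GRCm38.p6, chr8:107551288-107551308, plus strand), and the shorter one lacks its first base. Capitals mark the seed.
miR-140-3p.2: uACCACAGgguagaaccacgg
miR-140-3p.1: aCCACAGGguagaaccacgg

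*Mir140* itself was listed at 0 TPM, a level scaled by transcript length and library total, in wild-type replicates 1, 2, 3 and 4 and in *Mir140*-null replicates 1, 3 and 4. The exception, at 8.86 TPM, was the library labelled *Mir140*-null replicate 2. An mRNA library holds little of so short a transcript, and its TPM did not tell the genotypes apart here. The grouping follows the labels. The authors report genotyping of the mice by PCR and qRT-PCR of both mature microRNAs in rib chondrocytes, and that several of those RNA samples were among the ones sequenced. They also describe a separation of the genotypes in a principal component analysis of the sequenced libraries. Over tested genes, Spearman correlations of the library labelled *Mir140*-null replicate 2 were 0.923, 0.902 and 0.908 with *Mir140*-null replicates 1, 3 and 4 and 0.860 to 0.879 with the wild-type libraries. *Mir140*-null replicates 3 and 4 were not set apart in this way, with 0.887 to 0.911 with wild-type libraries and 0.896 to 0.908 with the other null libraries, apart from 0.932 with each other. The called genes, the number called up in the module and the medians of the role groups are given with and without the library labelled *Mir140*-null replicate 2. Counts within role groups, of positive estimates and of genes with searched letters are given with it only. Without it, only *Fads1* and *Stard4* were called in the module. The authors state a lower bound of reads for all samples, and the exact depth of each library is unknown from TPM.

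The libraries carried the signature of chondrocytes. The 10 chondrocyte markers summed to 73948, 74206, 59300 and 72713 TPM in wild-type replicates 1 to 4 and to 43644, 59820, 44804 and 59916 TPM in null replicates 1 to 4, and type II collagen (*Col2a1*) was the most abundant of them in the mean over libraries. Of these markers *Acan* was called up and *Col9a1*, *Col11a1* and *Hapln1* were called down in *Mir140*-null libraries (limma). Of 10 adipocyte markers none was called, *Cfd* was listed at 0 in every library, and *Adipoq*, *Cidec* and *Lep* stayed under 0.5 TPM in every library, while *Fabp4* was at 27.2 to 76.0 TPM and *Pparg* at 5.06 to 42.3 TPM (log2 fold change 1.08, limma adjusted p = 0.138). The summed adipocyte markers, led by *Fabp4*, were 37.4, 61.5, 102 and 72.2 TPM in wild type and 52.3, 58.6, 126 and 93.6 TPM in null replicates 1 to 4. The macrophage markers, led by *Cd68*, summed to 22.0 to 40.6 TPM in wild type and 16.8 to 31.3 TPM in *Mir140*-null libraries, *Lyz2* was called down, and *Adgre1*, *C1qa* and *C1qb* stayed under 0.5 TPM throughout.

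Connective tissue markers set libraries apart within the null genotype. The 7 perichondrial fibroblast markers, led by *Col1a2*, summed to 6009, 3537, 6417 and 3762 TPM in wild-type replicates 1 to 4 and to 883, 1059, 5632 and 4262 TPM in null replicates 1 to 4. *Mir140*-null replicate 1 and the library labelled *Mir140*-null replicate 2 were thus low, while replicates 3 and 4 lay within the wild-type range. *Col1a1* showed the same split, with 47.8 and 50.1 TPM in the low libraries, 1326 and 898 TPM in *Mir140*-null replicates 3 and 4, and 793 to 1544 TPM in wild type. *Col1a2*, *Col3a1*, *Postn* and *Thy1* were also lowest in these low libraries, but *Dcn* and *Pdgfra* did not split this way. *Dcn*, called down, was at 297, 319, 361 and 424 TPM in null replicates 1 to 4, all below the 449 to 508 TPM of wild type. *Pdgfra*, called up, was at 31.5 to 36.5 TPM in null libraries and 11.8 to 19.8 TPM in wild type. None of these 7 markers was at 0. In bulk RNA, fewer cells of a type and less RNA per cell cannot be told apart.
The remaining lists were less abundant or scattered. Endothelial markers, led by *Pecam1*, summed to 6.22 to 23.3 TPM in wild type and 4.02, 5.38, 30.0 and 16.2 TPM in null replicates 1 to 4, with none called. Erythroid markers, led by *Hbb-bs*, summed to 646 to 1854 TPM in wild type and 432, 256, 1725 and 1365 TPM in the null replicates, again with none called. Skeletal muscle markers, led by *Tnnt3*, summed to 55.5 to 78.7 TPM in wild type and 30.8 to 56.9 TPM in null libraries, and the neutrophil markers, led by *Camp*, to 1.62 to 5.90 and 6.80 to 10.3 TPM. *Camp* was the only neutrophil marker called, and no muscle marker was. Genes of the mitochondrial genome held 4.06% to 6.98% of all TPM in wild type and 8.41% to 10.1% in *Mir140*-null libraries, without overlap. With mitochondrial genes removed and TPM rescaled, limma called 11 lipid genes up and 1 down, against 12.7% and 5.46% of all tested genes. The part of cell type differences in the lipid gene values was not tested. The fits that leave out the libraries in question remove every feature of those libraries at once, so they do not measure it.

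**Figure D1:**
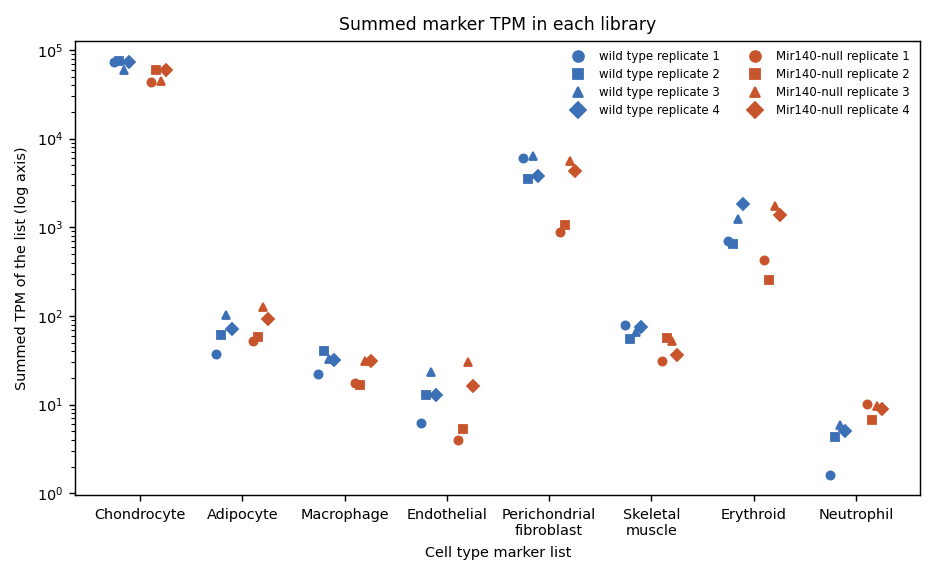
Summed TPM (log axis) of each cell type marker list in each library, with wild-type libraries in blue, Mir140-null libraries in orange and a symbol for each replicate number. In the perichondrial fibroblast list, Mir140-null replicates 1 and 2 lie at 883 and 1059 TPM, below the other 6 libraries at 3537 to 6417 TPM.

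All 39 genes of the module passed the filter (0.5 TPM or more in 4 or more libraries). With *Mir140* deleted, 10 of them rose and 1 fell. Those that rose were *Mvd*, *Fdft1*, *Sqle* and *Nsdhl* of sterol synthesis, *Fads1*, *Fads3* and *Elovl6* of fatty acid desaturation and elongation, the regulator *Srebf2*, and *Stard4* and *Npc1* of sterol transport. *Insig2* was the gene that fell. Genotypes were compared with limma on log2(TPM + 1), a scale on which the change of a gene at a few TPM is understated, and a gene was called at a Benjamini-Hochberg adjusted p under 0.05 over the 17177 genes tested. Called up were 25.6% of the module against 10.5% of all tested genes (1797), and called down 2.56% against 6.40% (1100). In 11 of the 39 genes every *Mir140*-null library lay above every wild-type library, and in 0 every null library lay below. Over all tested genes these patterns covered 15.7% and 10.2%. The counts without the library labelled *Mir140*-null replicate 2 were 11 and 1, beside 17.7% and 11.4% of tested genes. The median log2 fold change was 0.16 over the module and -0.01 over all tested genes. Of the 39 estimates 30 were positive, beside 49.3% of all tested genes. In 2 fits chosen after seeing the data, these medians changed. They were 0.09 and 0.071 without *Mir140*-null replicate 1 and the library labelled *Mir140*-null replicate 2. Without *Mir140*-null replicates 3 and 4 they were 0.32 and -0.076.

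**Figure D2:**
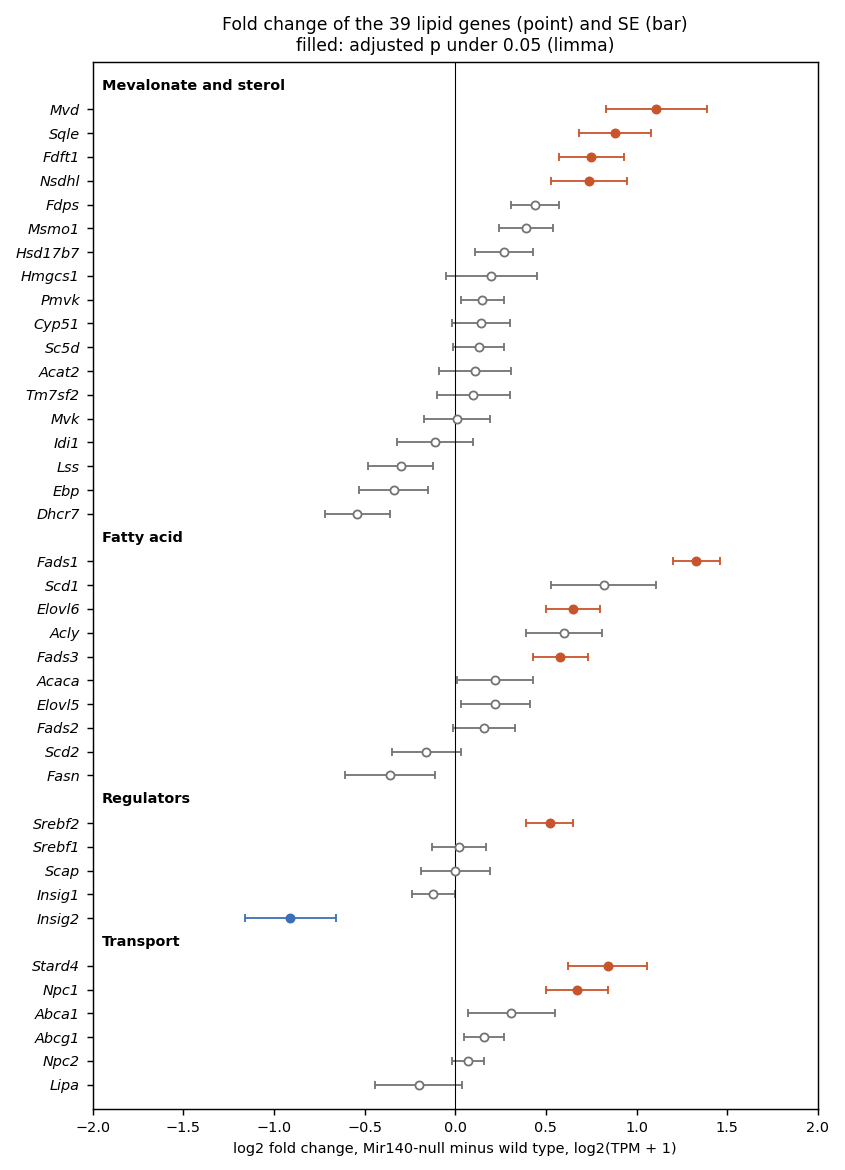
Log2 fold change (Mir140-null minus wild type, log2(TPM + 1) scale) of the 39 lipid genes by role group, with bars for the standard error and filled points for genes at a limma adjusted p under 0.05. The 10 orange points lie between 0.52 and 1.33, and the blue point is *Insig2* at -0.91.

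How many genes were called depended on which libraries entered the fit. Leaving out wild-type replicate 1, 2, 3 or 4 left 2, 6, 1 and 1 genes of the module called up by limma, and leaving out *Mir140*-null replicate 1, the library labelled *Mir140*-null replicate 2, or replicate 3 or 4 left 4, 2, 10 and 7. As shares of the module these were 5.13%, 15.4%, 2.56% and 2.56% without each wild-type library, beside 6.03%, 7.34%, 4.62% and 5.12% of all tested genes. Without each null library they were 10.3%, 5.13%, 25.6% and 17.9%, beside 6.54%, 4.54%, 9.04% and 8.39%. The share of the module called up was thus below that of all tested genes without wild-type replicate 1, 3 or 4. With *Mir140*-null replicate 1 and the library labelled *Mir140*-null replicate 2 both left out, a choice made after seeing the data, 1 was called up and 0 down, while over all tested genes 357 (2.08%) were called up and 210 (1.22%) down. With *Mir140*-null replicates 3 and 4 left out, likewise chosen after seeing the data, 9 (23.1%) were called up and 1 (2.56%) down, beside 11% and 12.9% of all tested genes. With quantile normalization 10.3% of the module was called up, beside 9.06% of all tested genes, and with median-ratio scaling 15.4%, beside 9.22%. *Fads1* was called in all 19 alternative fits, and it was the only gene of the module for which this held.

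**Figure D3:**
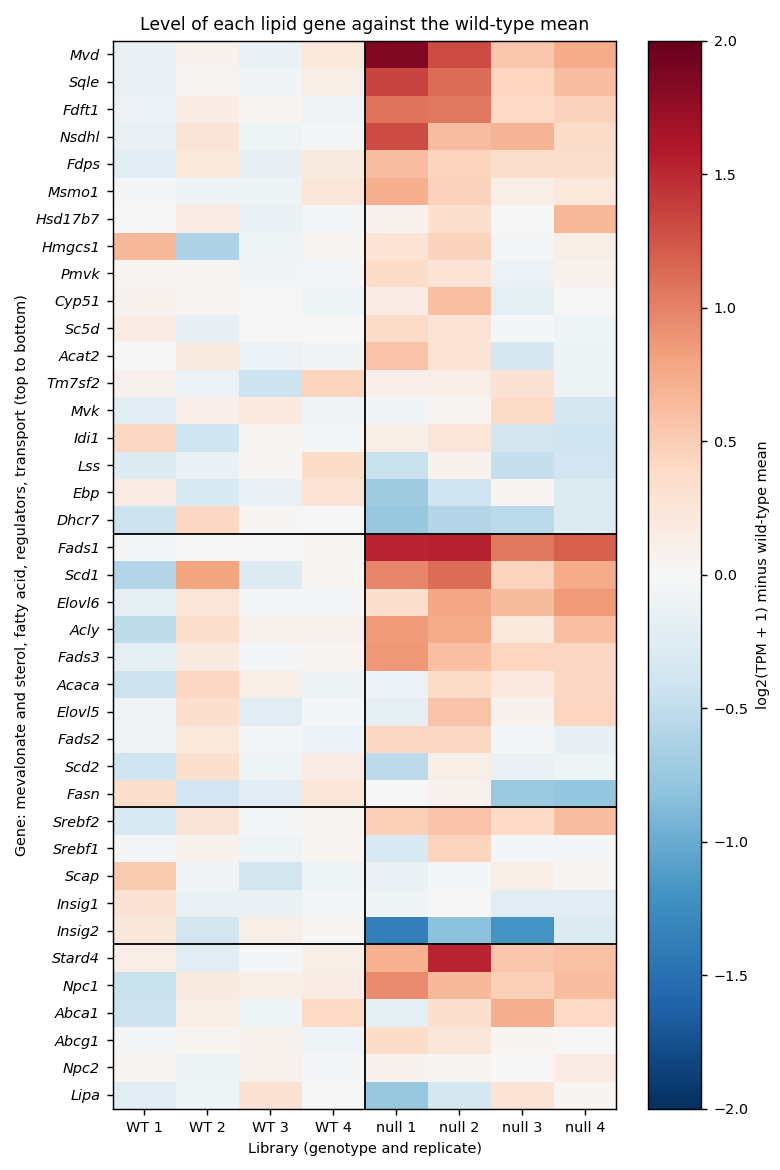
Level of each lipid gene in each library as log2(TPM + 1) minus the wild-type mean, from blue (lower) to red (higher), with genes stacked by role group and a column for each library. *Fads1* is red in all 4 Mir140-null libraries, while *Mvd*, *Sqle* and *Fdft1* are darkest in Mir140-null replicates 1 and 2.

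In the mevalonate and sterol group, 4 of 18 genes (22.2%) were called up and 0 down, beside 10.5% and 6.40% of all tested genes, with a median log2 fold change of 0.15, and of 0.10 without the library labelled *Mir140*-null replicate 2. *Mvd*, which decarboxylates mevalonate diphosphate to give isopentenyl diphosphate, was at 3.49, 4.23, 3.50 and 4.71 TPM in wild-type replicates 1 to 4 and at 16.9, 11.2, 6.21 and 7.30 TPM in null replicates 1 to 4. The groups did not overlap, and *Mir140*-null replicate 1 and the library labelled *Mir140*-null replicate 2 were the highest. The estimate on the log2 scale was 1.11 (standard error 0.28, limma adjusted p = 0.0331). *Fdft1*, squalene synthase, takes the first step committed to sterols. Its level was 46.7, 56.4, 52.1 and 48.2 TPM in wild type and 109, 106, 66.8 and 70.4 TPM in null replicates 1 to 4. Again every null library was higher, and the same pair of null libraries led. On the log2 scale this was 0.75 (standard error 0.18, limma adjusted p = 0.0296). *Sqle*, the squalene epoxidase that acts next, followed the same order, with 39.7, 45.8, 42.5 and 48.3 TPM in wild type and 114, 96.6, 59.5 and 67.6 TPM in null replicates 1 to 4. The log2 estimate was 0.88 (standard error 0.20, limma adjusted p = 0.0265). *Fdft1* and *Sqle* take successive steps of the pathway. *Nsdhl*, a dehydrogenase of the demethylation steps after lanosterol, was at 3.28, 4.63, 3.46 and 3.67 TPM in wild type and at 10.7, 6.26, 6.56 and 5.12 TPM in null replicates 1 to 4. Only *Mir140*-null replicate 1 stood out among the null libraries, none of which overlapped with wild type. The log2 fold change was 0.74 (standard error 0.21, limma adjusted p = 0.0470).

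The remaining enzymes of the mevalonate and sterol group did not pass the test. *Msmo1*, a C4-methylsterol oxidase and the most abundant gene of the group in the mean over libraries, was at 253, 240, 240 and 307 TPM in wild type and 427, 357, 285 and 301 TPM in null replicates 1 to 4. Its ranges overlapped through wild-type replicate 4, and the log2 fold change of 0.39 had a standard error of 0.15 and a limma adjusted p of 0.109. It was called up with 1 factor of unwanted variation, taken from the residuals of the genotype fit (limma adjusted p = 0.0331). It was also called up without *Mir140*-null replicates 3 and 4 (0.59, limma adjusted p = 0.0344). *Hmgcs1*, which makes HMG-CoA at the head of the pathway, was at 352, 145, 211 and 234 TPM in wild type and 272, 309, 217 and 244 TPM in null replicates 1 to 4. Wild-type replicate 1 was the highest of all and wild-type replicate 2 the lowest, so the wild-type libraries enclosed all null libraries. *Fdps*, which makes farnesyl diphosphate, did not overlap between genotypes (58.1 to 79.4 TPM in wild type, 87.1 to 105 TPM in null libraries), yet its log2 fold change of 0.44 missed the threshold (limma adjusted p = 0.0561). It was called up with mitochondrial genes removed (0.50, limma adjusted p = 0.0361) and with 1 factor of unwanted variation (limma adjusted p = 0.0432). *Dhcr7*, the 7-dehydrocholesterol reductase, was at 76.4 to 138 TPM in wild type and 60.7 to 84.6 TPM in null libraries, a log2 fold change of -0.54 (limma adjusted p = 0.0779). It was called down with quantile normalization (-0.70, limma adjusted p = 0.0372) and without wild-type replicate 1 (-0.68, limma adjusted p = 0.0421). The other 10 genes (*Acat2*, *Mvk*, *Pmvk*, *Idi1*, *Lss*, *Cyp51*, *Tm7sf2*, *Hsd17b7*, *Ebp* and *Sc5d*) had log2 fold changes between -0.34 and 0.27, none of them called. Summed over the 18 genes, the level was 1334, 1145, 1176 and 1300 TPM in wild type and 1612, 1639, 1198 and 1301 TPM in null replicates 1 to 4, so the last pair of null libraries lay within the wild-type range.

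**Figure D4:**
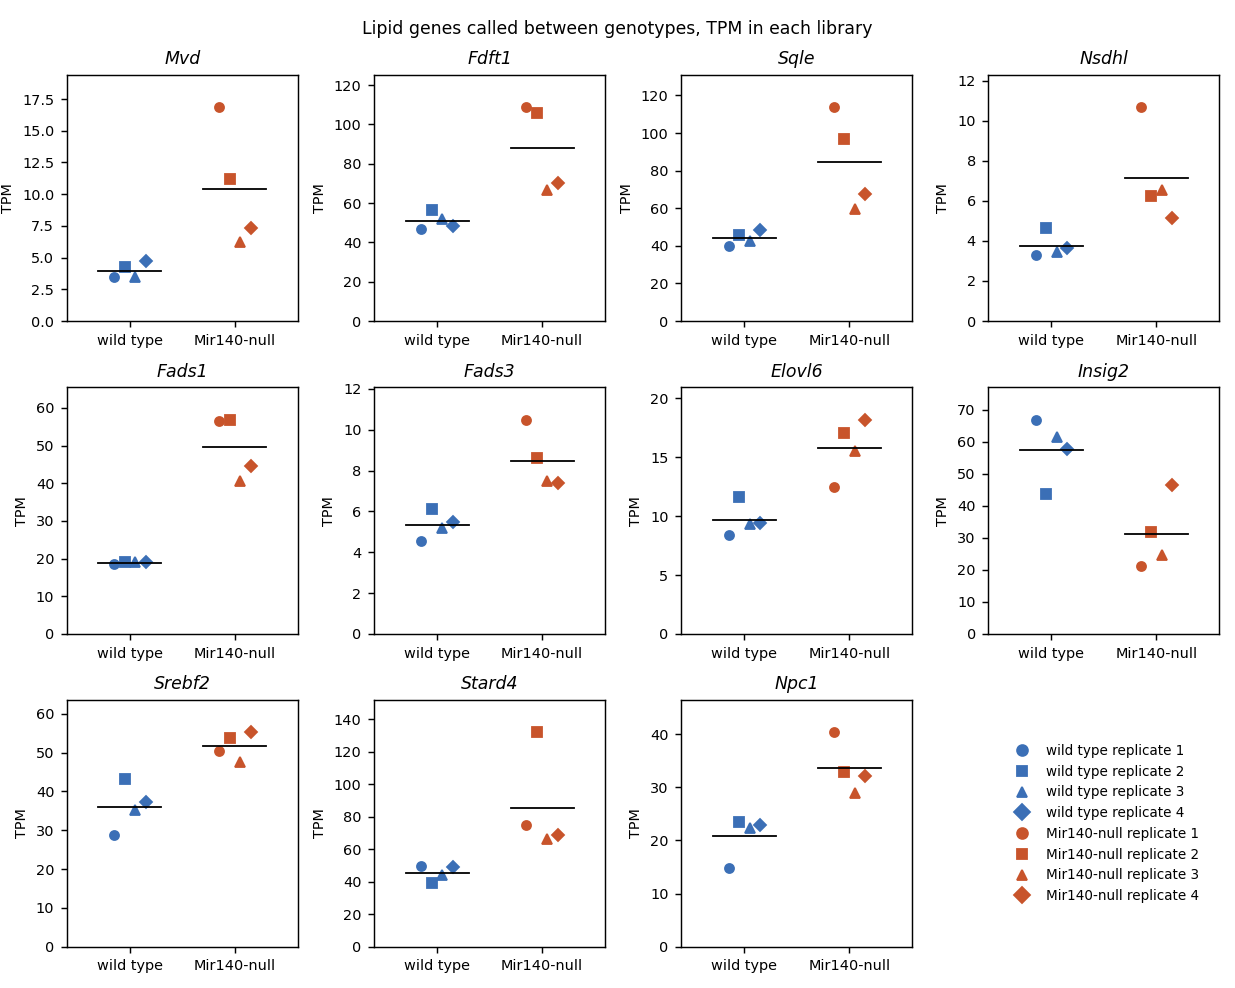
TPM of each of the 11 called lipid genes in each library (points, a symbol for each replicate number) with the mean of each genotype (line), wild type in blue and Mir140-null in orange. Groups are apart in 10 panels, while in *Insig2* the null library at 46.6 TPM lies above the wild-type library at 43.7 TPM.

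Without the library labelled *Mir140*-null replicate 2, the log2 fold changes of *Mvd*, *Fdft1*, *Sqle* and *Nsdhl* were 1.05, 0.65, 0.80 and 0.78 (limma adjusted p = 0.0844, 0.0744, 0.0707 and 0.0866). The calls of *Mvd* and *Sqle* also ended without any of the wild-type replicates (limma adjusted p from 0.0525 to 0.0825), that of *Fdft1* without wild-type replicate 1, 3 or 4 or *Mir140*-null replicate 1 (0.0630 to 0.0750), and that of *Nsdhl* without any library but *Mir140*-null replicate 4 (0.0606 to 0.106). Median-ratio scaling and quantile normalization ended the calls of *Fdft1* (limma adjusted p = 0.0531 and 0.0522) and *Nsdhl* (0.0608 and 0.0504), and a filter on a mean of 5 TPM also that of *Nsdhl* (0.0538).

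In the fatty acid group, 3 of 10 genes (30.0%) were called up and 0 down, beside the same 10.5% and 6.40%, with a median log2 fold change of 0.40, and of 0.36 without the library labelled *Mir140*-null replicate 2. The clearest difference of the module was in *Fads1* (ENSMUSG00000010663, chr19:10182888-10196877, plus strand), the delta-5 desaturase that makes arachidonic and eicosapentaenoic acid. It was at 18.5, 19.1, 19.0 and 19.2 TPM in wild-type replicates 1 to 4 and at 56.6, 56.9, 40.5 and 44.7 TPM in null replicates 1 to 4. The wild-type libraries were almost level at a mean of 19.0 ± 0.302 TPM (SD, n = 4), and the lowest null library was still far above them, at a mean of 49.7 ± 8.34 TPM (SD, n = 4) for the null genotype. The ratio of means was 2.62, and the log2 fold change 1.33 (standard error 0.13, limma adjusted p = 0.00353). Over the 19 alternative fits its log2 fold change ranged from 1.12 to 1.53 and its limma adjusted p from 0.000555 to 0.0398. It was 1.26 without the library labelled *Mir140*-null replicate 2 (limma adjusted p = 0.0152), and 1.12 with *Mir140*-null replicate 1 left out as well (limma adjusted p = 0.0123).

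The relatives of *Fads1* lie close to it on chromosome 19. *Fads3*, a desaturase that acts on sphingoid bases, was at 4.54, 6.13, 5.19 and 5.47 TPM in wild type and at 10.5, 8.60, 7.47 and 7.37 TPM in null replicates 1 to 4, without overlap and with a log2 difference of 0.58 (standard error 0.15, limma adjusted p = 0.0353). *Fads2*, the delta-6 desaturase that acts before *Fads1*, was at 13.9 to 17.6 TPM in wild type and 13.4 to 20.4 TPM in null libraries, with a log2 fold change of 0.16 (limma adjusted p = 0.529). The genes of the cluster thus differed in size of change, though their difference from each other was not tested. *Elovl6*, the elongase of saturated and monounsaturated chains, was at 8.41, 11.6, 9.30 and 9.39 TPM in wild type and at 12.5, 17.1, 15.5 and 18.2 TPM in null replicates 1 to 4. Here replicate 4 was the highest of the null libraries and replicate 1 the lowest, unlike the order in the sterol genes. Its fold change was 0.65 in log2 (standard error 0.15, limma adjusted p = 0.0258).

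The other 7 genes of the group did not pass the test. *Acly*, which makes cytosolic acetyl-CoA from citrate and was the most abundant gene of the group in the mean over libraries, was at 65.8, 118, 100 and 99.4 TPM in wild type and 170, 158, 109 and 142 TPM in null replicates 1 to 4. The ranges overlapped through wild-type replicate 2 and *Mir140*-null replicate 3, and the log2 fold change of 0.60 had a limma adjusted p of 0.0784. *Elovl5*, an elongase of polyunsaturated chains, was at 32.6, 43.7, 29.2 and 33.3 TPM in wild type and 30.3, 51.2, 35.9 and 46.6 TPM in null replicates 1 to 4, with a log2 fold change of 0.22 (limma adjusted p = 0.451). Its groups overlapped broadly. *Fasn*, the fatty acid synthase, had a log2 fold change of -0.36 and *Acaca*, which makes malonyl-CoA, one of 0.22. The stearoyl-CoA desaturases *Scd1* and *Scd2*, close relatives whose reads may be hard to assign, had 0.82 (limma adjusted p = 0.0838) and -0.16. *Scd1* was called up without wild-type replicate 2 (1.09, limma adjusted p = 0.0262), its highest wild-type library at 71.3 TPM against 27.0 to 42.4 TPM in the others, and *Acly* without *Mir140*-null replicate 3 (0.73, limma adjusted p = 0.0486).
Without the library labelled *Mir140*-null replicate 2, the log2 fold changes of *Fads3* and *Elovl6* were 0.57 and 0.61 (limma adjusted p = 0.0853 and 0.0704). The call of *Fads3* also ended without wild-type replicate 1, 3 or 4 or *Mir140*-null replicate 1 (limma adjusted p from 0.0669 to 0.0859), and that of *Elovl6* without wild-type replicate 1, 3 or 4 or *Mir140*-null replicate 4 (0.0537 to 0.0688). *Fads3* was not called after median-ratio scaling or quantile normalization (limma adjusted p = 0.0523 and 0.0515), nor *Elovl6* without *Mir140*-null replicates 3 and 4 (0.0766).

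Among the 5 regulators 1 gene rose and 1 fell (20% each, beside 10.5% and 6.40% of all tested genes), and the median log2 fold change was 0.00 (-0.12 without the library labelled *Mir140*-null replicate 2). *Srebf2*, the SREBP that favours sterol genes, was at 28.8, 43.1, 35.2 and 37.2 TPM in wild type and at 50.3, 53.7, 47.6 and 55.2 TPM in null replicates 1 to 4. The null libraries lay close together and above all wild-type libraries, and the split among them seen in *Mvd*, *Fdft1* and *Sqle* was absent. The log2 fold change was 0.52 (standard error 0.13, limma adjusted p = 0.0338). *Srebf1*, whose products favour fatty acid genes, was at 59.5, 64.4, 57.5 and 62.8 TPM in wild type and 49.2, 83.0, 59.2 and 60.1 TPM in null replicates 1 to 4. The null libraries included both the highest and the lowest of the 8, and the log2 fold change was 0.02 (limma adjusted p = 0.949).
*Insig2*, one of the proteins that retain SCAP in the endoplasmic reticulum, was at 67.0, 43.7, 61.4 and 57.9 TPM in wild type and at 21.3, 31.9, 24.6 and 46.6 TPM in null replicates 1 to 4. *Mir140*-null replicate 4 lay above wild-type replicate 2, and the other null libraries lay below every wild-type library. In log2 the change was -0.91 (standard error 0.25, limma adjusted p = 0.0395). *Insig1*, its relative and itself a classical SREBP target, was the most abundant regulator, at 249, 186, 186 and 197 TPM in wild type and 192, 204, 176 and 175 TPM in null replicates 1 to 4. Its ranges overlapped, with a log2 fold change of -0.12 (limma adjusted p = 0.496), and *Scap* had one of 0.00.
Without the library labelled *Mir140*-null replicate 2, the log2 fold changes were 0.50 for *Srebf2* and -0.94 for *Insig2* (limma adjusted p = 0.0851 and 0.0816). The call of *Srebf2* also ended without wild-type replicate 1, 3 or 4 or *Mir140*-null replicate 1 or 4 (limma adjusted p from 0.0583 to 0.0827), and that of *Insig2* without wild-type replicate 1, 3 or 4 or *Mir140*-null replicate 1 or 3 (0.0756 to 0.0940). *Srebf2* was also not called after quantile normalization (0.36, limma adjusted p = 0.0773) or without *Mir140*-null replicates 3 and 4 (limma adjusted p = 0.0714), nor *Insig2* with sample weights (limma adjusted p = 0.0571).

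In the transport group, 2 of 6 genes (33.3%) were called up and 0 down, against 10.5% and 6.40% of all tested genes, with a median log2 fold change of 0.24, and of 0.22 without the library labelled *Mir140*-null replicate 2. *Stard4*, a soluble carrier that moves cholesterol between membranes and the most abundant gene of the group in the mean over libraries, was at 49.7, 39, 44.3 and 49.4 TPM in wild type and at 74.8, 132, 66.1 and 68.9 TPM in null replicates 1 to 4. The library labelled *Mir140*-null replicate 2 stood far above the others, and the remaining null libraries were close together and still above wild type. The log2 fold change was 0.84 (standard error 0.22, limma adjusted p = 0.0372), and 0.61 without that library (limma adjusted p = 0.0385). *Npc1*, the membrane protein that exports cholesterol from lysosomes, was at 14.8, 23.4, 22.4 and 22.9 TPM in wild type and at 40.3, 32.9, 29.0 and 32.1 TPM in null replicates 1 to 4. Wild-type replicate 1 was low among its group, and the genotypes did not overlap. The log2 fold change was 0.67 (standard error 0.17, limma adjusted p = 0.0348), and 0.68 without the library labelled *Mir140*-null replicate 2 (limma adjusted p = 0.0797).
*Npc2*, the soluble partner that hands cholesterol to NPC1, was at 41.2 to 46.9 TPM in wild type and 43.9 to 49.4 TPM in null libraries, a log2 fold change of 0.07. *Lipa*, the lysosomal acid lipase that frees cholesterol from its esters, was at 2.54, 2.85, 3.96 and 3.08 TPM in wild type and 1.40, 2.20, 3.94 and 3.17 TPM in null replicates 1 to 4. Its groups overlapped, with a log2 fold change of -0.20 (limma adjusted p = 0.582). The cholesterol exporters were scarce. *Abca1* was at 0.760, 1.54, 1.21 and 2.10 TPM in wild type and 1.06, 1.95, 2.89 and 2.10 TPM in null replicates 1 to 4, with a log2 fold change of 0.31 (limma adjusted p = 0.385), and *Abcg1* stayed between 0.428 and 0.937 TPM. The authors, who used DESeq2 with estimated batch factors, counted *Abca1* among the genes that rose in *Mir140*-null mice.
The call of *Stard4* ended without any of the wild-type replicates or *Mir140*-null replicate 1 (limma adjusted p from 0.0671 to 0.0864), and that of *Npc1* without wild-type replicate 2, 3 or 4 or *Mir140*-null replicate 1 or 4 (0.0515 to 0.0784). As for scaling, *Stard4* had a limma adjusted p of 0.0531 after median-ratio scaling and 0.0687 after quantile normalization, and *Npc1* 0.0604 after the latter.

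*Mir140*-null replicate 1 and the library labelled *Mir140*-null replicate 2 were the high libraries for much of the module. Both lay above *Mir140*-null replicates 3 and 4 in 21 of the 39 genes (53.8%), among them 7 of the 10 up-regulated genes, and below them in 5 (12.8%). Over all tested genes the shares were 19.0% and 37.6%. In *Mir140*-null replicate 1, 13 of the 39 genes had their highest level of the 8 libraries and 6 their lowest. In the library labelled *Mir140*-null replicate 2 there were 7 and 0, and in wild-type replicate 1 there were 6 and 14. Counts over all tested genes are not given for these ranks. The median difference from the wild-type mean over the 18 sterol genes was 0.32, 0.31, 0.01 and 0.04 on the log2 scale in *Mir140*-null replicates 1 to 4, and over the 10 fatty acid genes 0.38, 0.59, 0.21 and 0.42. Over the regulators it was -0.13, 0.01, -0.04 and -0.02, and over the transport genes 0.21, 0.28, 0.38 and 0.28. Over all tested genes it was -0.09, -0.05, 0.11 and 0.05. The split of the sterol genes was thus not seen in the regulator and transport medians. *Mir140*-null replicate 1 and the library labelled *Mir140*-null replicate 2 are those in which the summed perichondrial fibroblast markers were 883 and 1059 TPM. They also had the fewest genes of at least 0.5 TPM, at 15800 and 16056, against 16991 to 17950 in the other libraries. The part of this in the lipid gene values was not tested. With *Mir140*-null replicate 1 and the library labelled *Mir140*-null replicate 2 left out, the median log2 fold change of the sterol genes was 0.03. That of all tested genes was 0.071 in the same fit. With *Mir140*-null replicates 3 and 4 left out the medians were 0.35 and -0.076. The median of the transport genes went the other way, with 0.35 in the first fit and 0.18 in the second. Its called genes did not, with 0.56 and 1.11 for *Stard4* and 0.55 and 0.79 for *Npc1*. With the former pair of libraries left out, the log2 fold changes of *Mvd*, *Sqle* and *Fdft1* were 0.64, 0.52 and 0.43 (limma adjusted p = 0.0849, 0.0734 and 0.0888). Without the latter pair of libraries they were 1.58, 1.23 and 1.07 (limma adjusted p = 0.00814, 0.00534 and 0.00560). *Elovl6* and *Srebf2* moved less between these fits, from 0.75 to 0.56 and from 0.51 to 0.53. Both pairs of fits were chosen after seeing the data and share their wild-type libraries, and the difference between them was not tested.

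**Figure D5:**
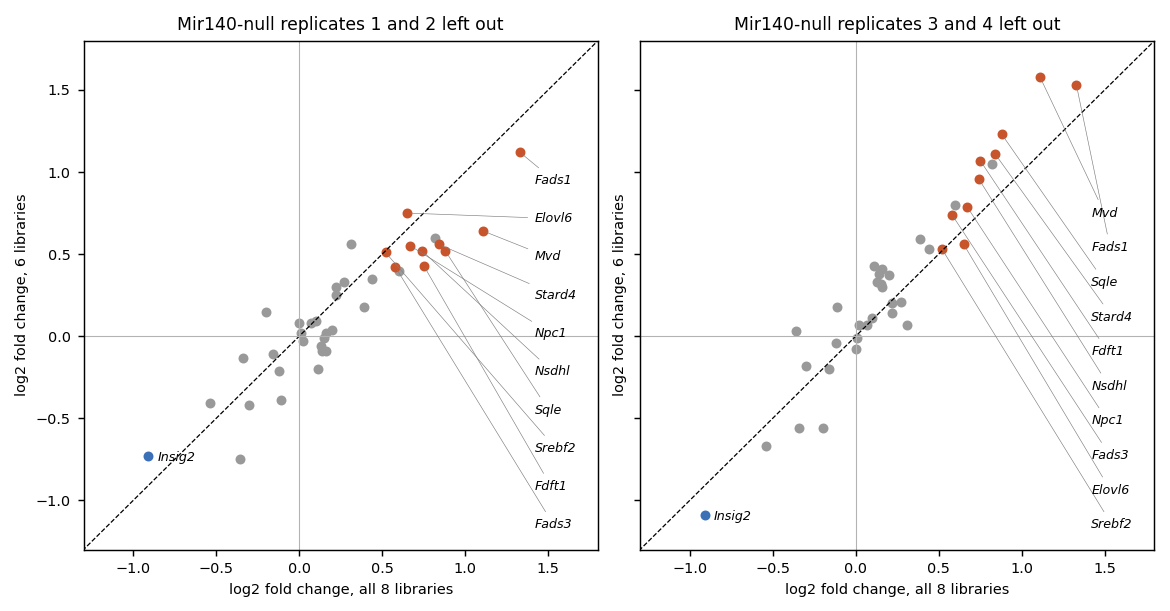
Log2 fold change of the 39 lipid genes with all 8 libraries (horizontal axis) against that with Mir140-null replicates 1 and 2 left out (left) or replicates 3 and 4 left out (right), with called genes coloured and a dashed line of equality. *Mvd* moves from 0.64 to 1.58 between the panels, while *Fads1* lies at 1.12 and 1.53.

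The study's lists of predicted miR-140 targets, made with TargetScan 7.2 (TargetScanHuman in the authors' methods) and matched here by symbol, hold 6 genes of the module: *Fads1* for miR-140-5p, *Hmgcs1*, *Elovl5*, *Stard4* and *Lipa* for miR-140-3p.1, and *Abca1* for both. Of these 6, *Fads1* and *Stard4* were called up, beside 10.5% of all tested genes. The other 4 had log2 fold changes of 0.20, 0.22, -0.20 and 0.31 in the order *Hmgcs1*, *Elovl5*, *Lipa* and *Abca1*. The share called up among the study's other predicted targets is not given here. The longest annotated mouse 3′UTR of each gene (GENCODE M21) was searched for letters that pair with the miR-140-3p seeds: CTGTGGT or TGTGGTA for miR-140-3p.2 and CCTGTGG or CTGTGGA for miR-140-3p.1. Sites of miR-140-5p were not searched, so nothing is shown here of its match to *Fads1*. The first of each pair of letters matches bases 2 to 8 and the second bases 2 to 7 followed by A, and both together make an 8mer. The letters of the isomiRs overlap, so a stretch of sequence can match both. Of the 5 members predicted for miR-140-3p.1, 4 held such letters for it, all but *Hmgcs1*.
Matches to bases 2 to 8 of miR-140-3p.2 were present in 9 of 39 members (23.1%) and in 19.0% of the 12988 tested genes with a 3′UTR, and those of miR-140-3p.1 in 7 members (17.9%) and 20.2% of tested genes. With the shorter matches included, 19 members held letters for either form, of which 5 (26.3%) were called up and 1 down, beside 25.0% called up of the 20 members without such letters. Of all tested genes with a 3′UTR, 14.3% of those with such letters and 11.5% of those without were called up. A match describes letters and not a site in use. Shown first, with the match in capitals, are *Fads1*, *Srebf2*, *Insig2* and *Fads3*, all called, and then *Fads2* and *Insig1*, which held 8mer letters and were not called.
Fads1, miR-140-3p.2, chr19:10195464-10195470, plus strand: aaaggccaggaCTGTGGTttgggaggcat
Srebf2, miR-140-3p.2, chr15:82204131-82204138, plus strand: ccttaacactgCTGTGGTAaatccacggtc
Insig2, miR-140-3p.2, chr1:121304774-121304780, minus strand: tcttctgactaCTGTGGTgtgcgtgtgct
Fads3, miR-140-3p.1, chr19:10059122-10059128, plus strand: tctctccactcCCTGTGGcctccttgcct
Fads2, miR-140-3p.1, chr19:10063882-10063889, minus strand: cactctgggggCCTGTGGAacaggagtcca
Insig1, miR-140-3p.1, chr5:28077618-28077625, plus strand: tcttccacagcCCTGTGGAgcttgcaatct
Insig1, miR-140-3p.1, chr5:28078096-28078103, plus strand: gaagctctgtaCCTGTGGAcacctgggttt
The match in *Insig2*, which fell, is of the same kind as that in *Fads1*, which rose, and the pair of 8mers in *Insig1* stands in a gene at a log2 fold change of -0.12. *Stard4* held 5 matches, of which 2 were 8mers.

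Promoter letters of the SREBP pathway were counted in RefSeq promoter windows (GRCm38.p6) around the start of each gene, reaching further before it than after, which were matched by symbol for 30 of the 39 members, 5 of them called up and 1 down. The letters searched, on both strands, were the sterol regulatory element in the form TCACNCCAC and the E-box CACGTG, which reads the same on either strand and can share its first letters with the end of the former. The first was present in 1 of 30 members (3.33%) and 1.44% of 27025 genes, and the E-box in 7 members (23.3%) and 8.09% of genes. The 27025 genes were not limited to tested genes, while all members were tested, so these shares are not of like sets. None of the 6 called members with a window held either. The RefSeq starts of these windows differ from those of GENCODE M21, by which the E-box of *Dhcr7* lies inside the gene. Capitals mark the letters searched.
Hmgcs1, chr13:119690214-119690222, plus strand: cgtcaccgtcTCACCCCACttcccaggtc
Insig1, chr5:28071311-28071316, plus strand: tgggtgaggtCACGTGgctccggtgg
Dhcr7, chr7:143823235-143823240, plus strand: ctgtgatgaaCACGTGgcaaaaagca

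Of 75 further genes of the pathway, 68 were tested, and 11 (16.2%) were called up and 2 (2.94%) down, beside 10.5% and 6.40% of all tested genes. Their median log2 fold change was 0.17. Without the library labelled *Mir140*-null replicate 2, 4 (5.88%) were called up and 0 down, beside 4.54% and 2.46% of all tested genes. With *Mir140*-null replicate 1 left out as well, 0 were up and 1 (1.47%) down, beside 2.08% and 1.22%. Leaving out *Mir140*-null replicates 3 and 4 gave 11 (16.2%) up and 5 (7.35%) down, beside 11% and 12.9%. The 6 called genes with the smallest p all rose. *Elovl1*, the elongase of very long saturated chains, was at 44.9, 62.8, 52.7 and 54.9 TPM in wild type and at 102, 87.4, 88.3 and 95.4 TPM in null replicates 1 to 4, which gave 0.79 on the log2 scale (standard error 0.12, limma adjusted p = 0.00839). *Scarb2*, a lysosomal membrane protein, was at 14.3 to 17.3 TPM in wild type and 23.2 to 26.9 TPM in null libraries (log2 fold change 0.67, limma adjusted p = 0.00983). The lipoprotein receptor gene *Vldlr* was at 2.43, 6.12, 5.52 and 7.29 TPM in wild type and 19.8, 14.1, 15.0 and 17.1 TPM in null replicates 1 to 4 (log2 fold change 1.53, limma adjusted p = 0.0125). In all 3 genes the null libraries lay above every wild-type library and *Mir140*-null replicates 3 and 4 were not set apart from the other null libraries. *Ube2g2*, a ubiquitin-conjugating enzyme of endoplasmic reticulum degradation, *Hacd2*, a dehydratase of chain elongation, and *Rxrb*, a retinoid X receptor, had log2 fold changes of 0.71, 0.87 and 0.56 (limma adjusted p = 0.0165, 0.0188 and 0.0188), also without overlap. For these 6 genes, in the order given, limma adjusted p without the library labelled *Mir140*-null replicate 2 were 0.0274, 0.0303, 0.0343, 0.0496, 0.0547 and 0.0548. The call of *Hacd2* also ended without wild-type replicate 3, and that of *Rxrb* without wild-type replicate 3 or 4 (over all alternatives, limma adjusted p of at most 0.0767 and 0.0998).
Further genes were chosen after their values were seen. *Soat1*, which esterifies cholesterol, was at 35.3, 60.2, 42.8 and 68.3 TPM in wild type and 87.1, 146, 102 and 105 TPM in null replicates 1 to 4 (log2 fold change 1.10, limma adjusted p = 0.0214). *Plin2*, the coat protein of lipid droplets, was at 67.3, 74.3, 34.9 and 52.3 TPM in wild type and 15.3, 14.9, 34.5 and 25.2 TPM in null replicates 1 to 4 (log2 fold change -1.34, limma adjusted p = 0.0293). Its null replicate 3 was nearly level with wild-type replicate 3. The other down-regulated gene was *Gramd1c*, a sterol transfer protein, at 2.66 to 2.89 TPM in wild type and 1.16 to 2.10 TPM in null libraries (log2 fold change -0.56, limma adjusted p = 0.0295). *Soat2*, *Dgat1*, *Dgat2* and *Nceh1*, which also act in ester and fat storage, had log2 fold changes of 0.46, -0.51, -0.37 and 0.15 and were not called. Without the library labelled *Mir140*-null replicate 2, *Soat1*, *Plin2* and *Gramd1c* had 0.95, -1.18 and -0.57 (limma adjusted p = 0.0553, 0.0745 and 0.0692). Their calls also ended without wild-type replicate 3 for *Soat1*, without wild-type replicate 1, 2 or 4 or *Mir140*-null replicate 1 for *Plin2*, and without any library but *Mir140*-null replicate 1 for *Gramd1c* (limma adjusted p over all alternatives of at most 0.0929, 0.165 and 0.158).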

How the data were processed

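The authors deposited TPM per Ensembl gene and library. The submitters' processing notes name FastQC 0.11.7, Salmon and mm10, and DESeq2 for the authors' own tests. No version is given for the latter tools. Symbols and positions came from GENCODE M21, which held 99.8% of the 52325 identifiers.

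Genes that reached 0.5 TPM in 4 or more of the 8 libraries were tested on log2(TPM + 1) with limma 3.58.1 in R 4.3.3 (trend, two-sided, genotype as the term), and p was adjusted by Benjamini-Hochberg over 17177 genes. Tables and figures used Python 3.11.15, NumPy 2.4.6, pandas 2.3.3 and Matplotlib 3.10.9. The exact read depth of each library was not available from TPM.

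Members and lists were chosen with earlier results of these data known, so no set test was run. Values in every library were given for called members, predicted targets, *Srebf1*, *Srebf2* and the most abundant gene of each role group, and further pathway genes were named by the 6 smallest p among called genes. Of these 75 genes, 74 were matched by symbol. Marker lists of 8 cell types were summed to describe the libraries. Alternatives were another pseudocount, filters, scalings, model terms, sample weights and libraries left out.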

Additional observations from a re-analysis of the deposited data

Results flagged for a closer look

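In 106 comparisons of a gene within a genotype, covering the module, the called further genes of the pathway and *Mir140*, 5 had a library far from the others of its genotype, where chance gives about 1 in 20. *Lss*, which cyclises squalene epoxide, was highest in the library labelled *Mir140*-null replicate 2 at 70.0 TPM, against 48.0 to 50.9 TPM in the other null libraries. *Stard4* was highest in the same library at 132 TPM, against 66.1 to 74.8 TPM. *Mir140* was listed at 8.86 TPM in it and at 0 in the other null libraries. *Npc1* was lowest in wild-type replicate 1 at 14.8 TPM, against 22.4 to 23.4 TPM in the other wild-type libraries. *Mid1ip1*, a regulator of acetyl-CoA carboxylase named after its values were seen, was highest in wild-type replicate 1 at 26.3 TPM, within the 21.8 to 38.6 TPM of the null libraries, while the other wild-type libraries were at 6.49 to 7.86 TPM.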

How the results depend on the processing

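The 11 called genes kept their direction in all 19 alternatives, and changes of sign occurred only in genes that were not called. With another filter, the replicate block or 1 factor of unwanted variation the fold changes equal those of the main fit, so direction could not change there. The factor was taken from the residuals of the genotype fit and lowers the residual spread by construction. The calls it added are therefore no separate support. Of 736 alternative values for single genes of the module, 629 fell on the same side of the threshold, 99 lost a call and 8 gained one, and no called value reversed. The 629 include the genes that were not called and stayed so, while all 99 losses fell on the 11 called genes. Apart from *Fads1*, called in all 19 alternatives, these were called in 6 (*Nsdhl*) to 11 (*Mvd* and *Sqle*) of the 19. Over all tested genes, 764 were called up and 349 down by limma with no filter, 605 down with a mean of at least 5 TPM (median log2 fold change of all genes 0.112, from the genes kept) and 2016 down with 1 factor of unwanted variation. Leaving out single libraries gave 779 to 1553 up and 419 to 1214 down. With *Mir140*-null replicates 1 and 2 left out, 357 were up and 210 down, and with replicates 3 and 4 left out 2212 were down. The module had 1 gene up (2.56%, all tested genes 1.46%) and 0 down with no filter, 6 up (15.4%, all 9.22%) with median-ratio scaling, 4 up (10.3%, all 9.06%) and 2 down (5.13%, all 6.54%) with quantile normalization 0 down (all 6.35%) with sample weights, 11 up (28.2%, all 12.7%) with mitochondrial genes removed and 12 up (30.8%, all 14.3%) with 1 factor of unwanted variation. Without single libraries it had 1 to 10 up and 0 to 1 down, and without *Mir140*-null replicates 1 and 2 it had 1 up and 0 down, and without replicates 3 and 4 it had 9 up (23.1%, all 11%) and 1 down. At an unadjusted limma p under 0.05, 6 of the 18 sterol genes were higher and 1 lower (together 38.9%, all tested genes 33.9%). Same-numbered libraries did not deviate together (correlations of 0.031, 0.016, 0.069 and -0.009), so the numbers do not pair them. With the replicate block 671 genes (3.91%) were up and 454 down, and 1 (2.56%) and 0 in the module. The median of the sterol genes was 0.35 without *Mir140*-null replicates 3 and 4, 0.03 without replicates 1 and 2, 0.09 with quantile normalization and 0.10 to 0.25 without single libraries. That of the regulators was -0.14 with quantile normalization, and -0.12 to 0.04 without single libraries. That of the transport genes was 0.42 with a pseudocount of 0.1, 0.67 with the stricter filter, 0.39 with quantile normalization, 0.35 without *Mir140*-null replicates 1 and 2, and 0.16 to 0.29 without single libraries. The no-filter fit adjusts over 52325 genes, and left-out fits have fewer samples. Other causes were not tested.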
